A study of Mus musculus with 6 samples.

Results

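The genes described here encode the secreted and membrane-bound proteases that cut the extracellular matrix, with their inhibitors and the urokinase receptor. They were chosen by symbol: every non-control probe whose transcript accession belongs to a gene named Mmp, Timp, Adamts or Adamtsl with a number, or to Plau or Plaur. This gave 78 of 56605 probes, for 52 genes of the 53 in the RefSeq table that the rule takes (Mmp27 had no probe). The cells were glioblastoma stem cells from mice, profiled on 6 one-colour arrays. A hairpin without a target (NT, the control) was used for 3 of them, and for 3 the hairpin mGGCTsh3 against Ggct (the knockdown). All 6 samples came from 1 line, named 5B in the titles, which was derived from Sleeping Beauty (SB) transposon-mediated brain tumours and kept as neurospheres with EGF and bFGF. Both groups carried a lentivirus, and the knockdown rests on 1 hairpin. Each of the 3 dates in the titles is shared by 1 control and 1 knockdown array, and these pairs are replicates 1, 2 and 3. The labels do not say whether the samples were separate cultures, so the p-values cover only array-to-array spread, which may be technical.

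Matrix metalloproteinases (MMPs) are zinc enzymes made as inactive precursors, and tissue inhibitors of metalloproteinases (TIMPs) bind and block their active sites. ADAMTS enzymes are related zinc proteases that cut proteoglycans and process procollagens, while the ADAMTS-like proteins lack the protease domain. The serine protease urokinase (Plau) binds its receptor (Plaur) on the cell surface and turns plasminogen into plasmin, which activates several MMPs. In gliomas these systems are known for their part in the invasion of brain tissue, whose matrix is rich in proteoglycans and hyaluronan.

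The values given are log2 signals minus the 75th percentile of the array, so 0 is the level of a probe at that percentile. Probes have their own brightness, so levels are compared between arrays and never between genes. A log2 fold change is knockdown minus control, and the figure after ± is its standard error in limma. Arrays had 54.5% to 56.8% of probes well above background, and the 75th percentile of the signal ran from 812 to 1373 intensity units. Ggct itself was at 3.32, 3.72 and 3.71 in control and 0.22, 0.91 and 0.71 in knockdown replicates 1, 2 and 3, or 12.7% of control (limma adjusted p = 0.00314). On the first principal component, which held 55.2% of the variance, knockdown replicate 1 lay at 46.6, while replicates 2 and 3 lay at 9.13 and 15.4. Of 7 neural and glioma stem cell markers, Sox2 and Nes were above background on all 6 arrays and Olig2 on none. The summed signal of the 5 tested stem cell markers was 40.5 to 48.9 in control and 27.0 to 38.6 in knockdown arrays, in multiples of the 75th percentile. Nes and Sox2, with the brightest probes, made up most of that sum. By gene, the log2 fold change was -0.64 for Nes, -0.55 for Sox9, -0.335 for Sox2, 0.06 for Fabp7 and 1.03 for Prom1. In limma 0 of the 5 passed. Of 7 microglia and macrophage markers, Aif1, Cx3cr1, P2ry12 and Ptprc were above background on no array, while Csf1r, Cd68 and Itgam were on all 6, with a summed signal of 11.3 to 17.7 in control and 11.3 to 14.3 in knockdown arrays. Itgam, with the brightest probe, made up most of that sum. Summed over the 4 tested of 5 astrocyte markers, signal was 0.267 to 0.411 in control and 0.472 to 0.669 in knockdown arrays, in multiples of the 75th percentile. S100b (log2 fold change 1.01; limma adjusted p = 0.0284) and Slc1a3 (0.86; limma adjusted p = 0.0399) rose. With the replicate pair as a block Slc1a3 did not pass (limma adjusted p = 0.0652). Aldh1l1 (0.98) and Gfap (-0.75, with overlapping groups) did not pass. The part of such cells in the results was not tested. RNA was from whole cultures, so fewer cells of a type and less RNA per cell cannot be told apart.

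Of the 52 genes, 26 reached the detection minimum of 3 arrays above background and were tested. Over all named genes it was 14151 of 22907. For 23 of the 52 genes no probe was above background on any array. These included the collagenase genes Mmp8 and Mmp13, the matrilysin gene Mmp7, the macrophage elastase gene Mmp12 and the membrane-type genes Mmp16, Mmp24 and Mmp25. Mmp20, Mmp21, Mmp23, Adamts2, Adamts3, Adamts6, Adamts8, Adamts12, Adamts13, Adamts15, Adamts16, Adamts18 and Adamts19 were also in this set, with Adamtsl1, Adamtsl2 and Adamtsl3. The remaining 3, Adamts5, Adamts20 and Timp4, were above background on 1 or 2 arrays. The plot of detection by family shows that ADAMTS genes were mostly undetected, with 7 of 19 tested.

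**Figure D1:**
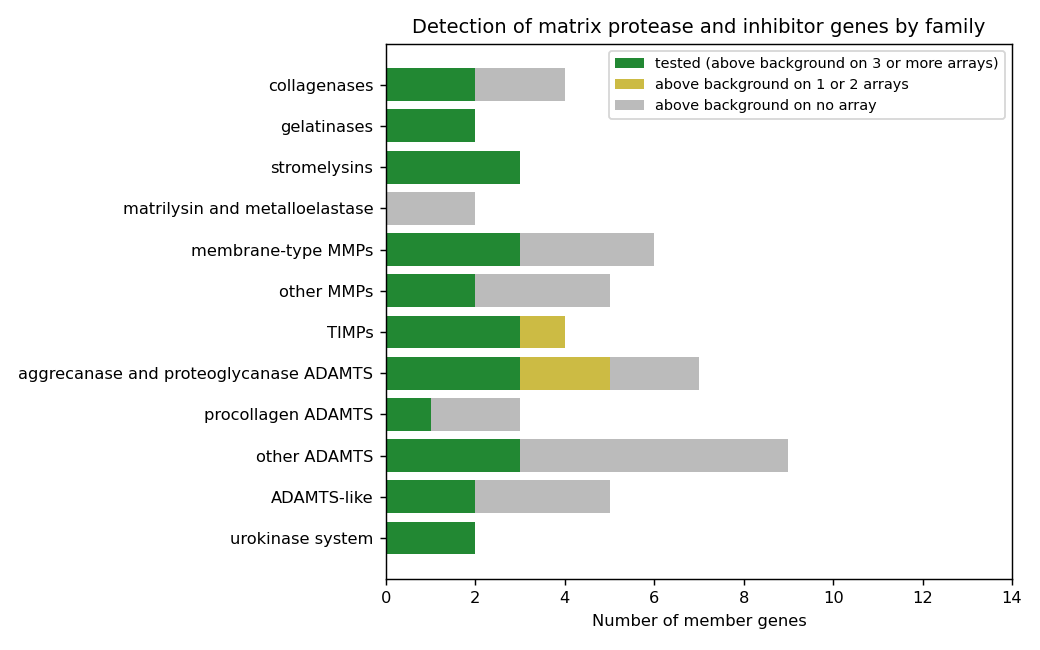
Number of member genes in each family, split by detection: tested (above background on 3 or more of 6 arrays), above background on 1 or 2 arrays, or on none. Both gelatinases, all 3 stromelysins and both urokinase genes were tested, while both genes of the matrilysin and metalloelastase group were above background on no array.

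Of the 26 tested genes, 1 rose and 4 fell in the knockdown at an adjusted p below 0.05 in limma over all 14151 genes, and 21 did not pass. The riser was Mmp2, and the fallers were Mmp1a, Adamts14, Adamts9 and Plaur. That is 19.2% of the tested members, against 7.41% of all genes tested (4.57% higher and 2.84% lower). A gene that was detected in 1 group only could pass the background filter through that group, but of the tested members 24 were above background on all 6 arrays. The median log2 fold change, knockdown minus control, was -0.10 over the tested members and 0.02 over all genes. Single members ran from -1.47 to 1.13. Arrays of the groups did not overlap for 13 of the 26 genes, 6 higher and 7 lower, against 32.4% of all genes. An unadjusted limma p below 0.05 was seen for 12 members (46.2%), against 24.8% of all genes, and the 3 pairs had the same sign for 17 members (65.4%), against 48.7%. With the replicate pair as a block, 4 members passed against 3.94% of all genes: Mmp2 and Mmp19 higher and Mmp1a and Timp1 lower, so Adamts14, Adamts9 and Plaur no longer passed. The count of 5 changed when single arrays were left out, as did the 1048 calls over all genes. It was 0 without control replicate 1, control replicate 2 or knockdown replicate 3 (11 members each at an unadjusted limma p below 0.05). Over all genes, 14, 42 and 21 passed in these fits. The member count was 2 without control replicate 3 (424 of all genes) or knockdown replicate 2 (626), and 4 without knockdown replicate 1 (840). Those 4 were Mmp1a and Adamts9, kept from the 5, with Mmp1b and Adamts1, which did not pass with all arrays.

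**Figure D2:**
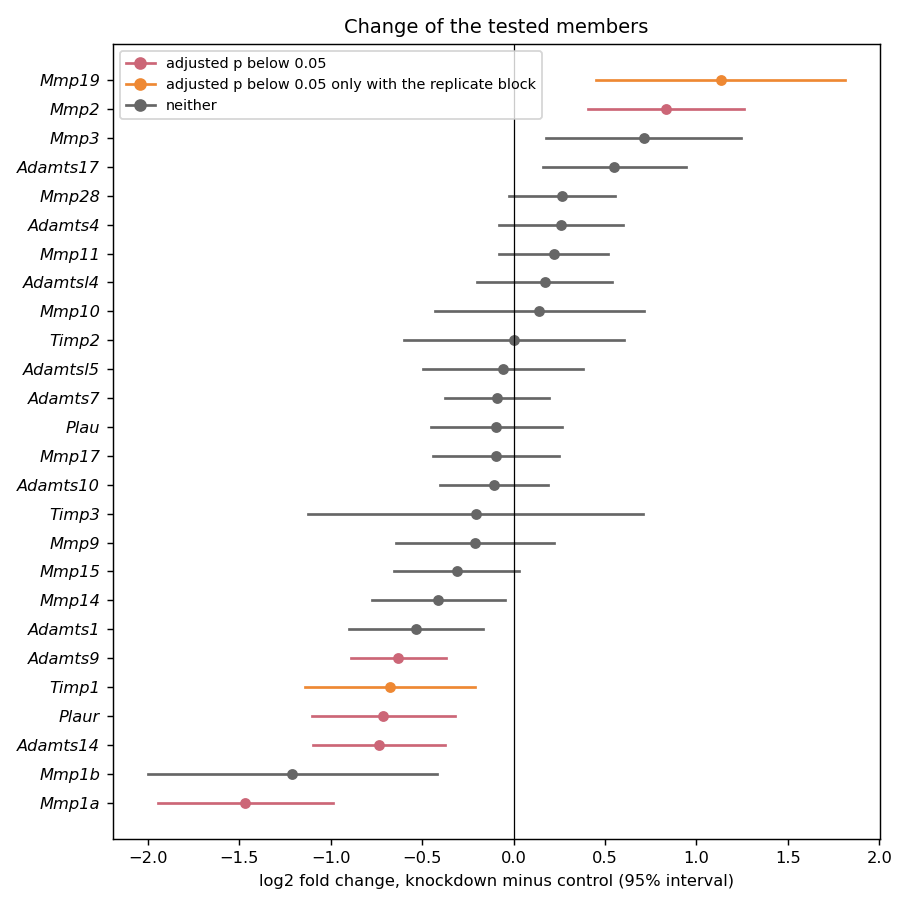
Log2 fold change (knockdown minus control) of the 26 tested genes, with 95% intervals from limma over 3 control and 3 knockdown arrays. Mmp1a lies lowest at -1.47 and Mmp19 highest at 1.13. A gene past the threshold must have an interval away from 0, and members that did not pass, such as Mmp19 and Timp1, have one too.

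Mmp1a and Mmp1b, grouped here with the collagenase genes, and the stromelysin genes Mmp3 and Mmp10, whose products have broad substrates, are near neighbours. With 6 others they form an unbroken run of 10 protein-coding Mmp genes on chromosome 9, of which only these 4 were tested. The bases just before their starts, from RefSeq (GRCm38.p6), are shown because these promoters share a site for AP-1, the dimer of Jun and Fos proteins named for c-Jun in the series title. Each stretch holds the 150 bases before the start, 5′ to 3′ on the gene's strand, with the AP-1 motif TGANTCA (the same on both strands) and the TATA motif TATAAA in capitals. A promoter window was available for 18 of the 26 tested members. Plaur, on chromosome 7, is included as the only other one of these with the AP-1 motif in its window. The stretches lie at chr9:7463991-7464140 (+) for Mmp1a, chr9:7388027-7388176 (-) for Mmp1b, chr9:7445672-7445821 (+) for Mmp3, chr9:7502192-7502341 (+) for Mmp10 and chr7:24462333-24462482 (+) for Plaur.
Mmp1a: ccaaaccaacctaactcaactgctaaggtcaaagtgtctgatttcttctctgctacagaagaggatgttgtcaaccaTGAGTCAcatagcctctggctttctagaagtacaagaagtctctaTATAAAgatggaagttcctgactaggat
Mmp1b: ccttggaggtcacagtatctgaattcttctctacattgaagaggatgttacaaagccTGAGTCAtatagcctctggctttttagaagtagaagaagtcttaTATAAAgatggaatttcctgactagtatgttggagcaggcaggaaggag
Mmp3: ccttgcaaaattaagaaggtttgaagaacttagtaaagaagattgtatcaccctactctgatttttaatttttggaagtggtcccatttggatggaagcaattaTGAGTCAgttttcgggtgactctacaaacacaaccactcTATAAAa
Mmp10: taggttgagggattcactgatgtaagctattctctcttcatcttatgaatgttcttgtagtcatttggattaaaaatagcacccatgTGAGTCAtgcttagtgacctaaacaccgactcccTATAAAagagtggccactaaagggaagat
Plaur: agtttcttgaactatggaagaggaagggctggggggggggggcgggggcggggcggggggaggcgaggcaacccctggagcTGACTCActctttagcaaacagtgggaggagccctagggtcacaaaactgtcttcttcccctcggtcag

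The AP-1 motif began 73 bases before the start of Mmp1a, 93 before Mmp1b, 46 before Mmp3, 63 before Mmp10 and 69 before Plaur. Aligned end to end, the Mmp1a and Mmp1b stretches were identical in 65.5% of aligned columns, against 47.0% for Mmp1a and Mmp3 and 50.9% for Mmp1a and Mmp10. Mmp1a and Plaur, on different chromosomes, gave 45.5%. Windows of 300 bases (250 before to 50 after the start) were available for 36 of the 52 genes. Of the tested members, Mmp2, Mmp9, Mmp17, Mmp19, Plau, Adamts4, Adamts7 and Adamts10 had no window, so the motif was not searched for there. Of the 36 genes, 9 held TGANTCA in at least 1 window, 8 of them among the 9 genes of the chromosome 9 run with a window. Of all 32851 windows available, 7.81% held it, a share counted by window and not by gene. Mmp7 and Mmp12 each had a window with the motif and a window without it. A match describes the letters of the window only.

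In the reported fit Mmp1a fell furthest of the members. Its signal was -3.29, -2.85 and -2.75 in control and -4.10, -4.49 and -4.71 in knockdown replicates 1, 2 and 3. All 3 knockdown arrays lay below all 3 control arrays, and all 6 were above background. Its log2 fold change was -1.47 ± 0.21 (adjusted p = 0.0137 in limma), or 36.2% of control, and the pairs differed by -0.80, -1.64 and -1.96. With normexp background correction it was -0.679 with the call kept, and Adamts14 (-0.707) and Plaur (-0.701) then lay lower. The call was lost without control replicate 1 (limma adjusted p = 0.0582), control replicate 2 (0.0618) or knockdown replicate 3 (0.0573).

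Mmp1b, the paralogue of Mmp1a, was at -4.90, -4.41 and -4.25 in control and -4.94, -5.98 and -6.26 in knockdown replicates. It was above background on all control arrays but on 1 knockdown array, replicate 1, which lay only 0.04 below its paired control. The fitted change was -1.21 ± 0.34 (adjusted p = 0.076 in limma), and -0.32 with normexp background correction (adjusted p = 0.168 in limma). Without knockdown replicate 1, the only knockdown array above background, Mmp1b passed at -1.60 (adjusted p = 0.0117 in limma). With 2 of 3 knockdown arrays not well above background, the size of the Mmp1b change depends on the background correction. A second Mmp1b probe was above background on 2 control arrays and no knockdown array and was not tested. The 2 genes are close paralogues, so signal from one could reach the probe of the other, which was not tested.

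The neighbouring Mmp3 went the other way, at -1.86, -1.61 and -1.54 in control and -0.46, -1.35 and -1.07 in knockdown replicates. All knockdown arrays were above all control arrays, with the widest gap in replicate 1. The log2 fold change of 0.71 ± 0.23 (SE) did not pass (limma adjusted p = 0.105). Mmp10, at -2.51, -2.40 and -2.11 in control and -1.66, -2.31 and -2.62 in knockdown replicates, had overlapping groups. A log2 fold change of 0.14 for Mmp10 (95% interval -0.43 to 0.71) turned to -0.13 without knockdown replicate 1. The change of Mmp3 exceeded that of Mmp1a by 2.18 log2 units, and by 2.20, 1.91 and 2.43 in the pairs. The exact two-sided permutation test over 3 control and 3 knockdown arrays gave p = 0.1, the smallest this design allows. It was 1 of 3 such comparisons, chosen after the values were seen, all with an adjusted p of 0.1. The tested genes of the cluster, which share the motif, had values on both sides of 0, and of these only Mmp1a passed. The part of the motif or the neighbourhood was not tested. The plot of the cluster shows the values by pair.

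**Figure D3:**
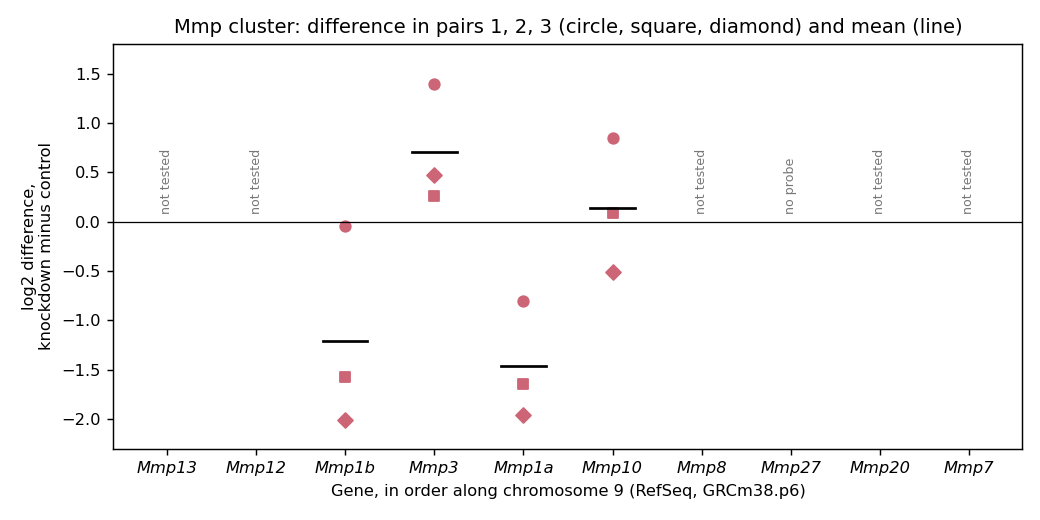
Difference between knockdown and control (log2) in each replicate pair for the Mmp genes in their order along chromosome 9, with the mean as a line. Mmp1b and Mmp1a lie below 0 in all pairs, Mmp3, between them, lies above 0 in all pairs, and Mmp10 is on both sides.

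Mmp11, the stromelysin-3 gene, ran from 1.94 to 2.20 in control and from 2.17 to 2.40 in knockdown arrays, with a log2 fold change of 0.22 (95% interval -0.08 to 0.52; limma adjusted p = 0.339).

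Of the gelatinase genes, whose products cut denatured collagen and basement membrane collagen, Mmp2 rose and Mmp9 did not pass. Mmp2 was at -1.19, -1.47 and -1.79 in control and -0.44, -0.83 and -0.68 in knockdown replicates. The groups did not overlap, and the pairs differed by 0.75, 0.64 and 1.11. The log2 fold change was 0.83 ± 0.18 (adjusted p = 0.0388 in limma), or 1.78-fold. Its call did not hold when any single array was left out, with adjusted p from 0.059 to 0.124 in limma. Mmp9 was at -4.60, -4.39 and -4.43 in control and -4.42, -4.55 and -5.08 in knockdown replicates. It was not well above background on 1 knockdown array. Of 4 neutrophil markers, S100a9 and Ly6g were above background on no array, while S100a8 and Elane were on all 6. The summed signal of S100a8 and Elane, most of it from Elane, was 0.657 to 0.753 in control and 0.79 to 0.879 in knockdown arrays. Its part in the Mmp9 values was not tested. The Mmp9 change was -0.21 on the log2 scale (95% interval -0.64 to 0.22; limma adjusted p = 0.546). The change of Mmp2 exceeded that of Mmp9 by 1.04 log2 units, a comparison chosen after the values were seen. The exact two-sided permutation p over 3 and 3 arrays was 0.1, the smallest this design allows. Mmp2 is also a gene of fibroblasts. The summed signal of the 4 of 6 fibroblast and pericyte markers that were tested was 0.622 to 0.998 in control and 1.09 to 1.26 in knockdown arrays, in multiples of the 75th percentile. Col1a2 of that list rose (log2 fold change 1.26), while Rgs5 and Lum were above background on no array, and the part of such cells in the Mmp2 rise was not tested.

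The 3 tested membrane-type genes had values below 0. Of these 0 passed in limma, and 1, Mmp14, had an unadjusted p below 0.05. Mmp14 encodes MT1-MMP, which activates the MMP2 precursor on the cell surface. It was at 0.84, 0.89 and 0.47 in control and 0.24, 0.51 and 0.22 in knockdown replicates. Control replicate 3 lay just below the highest knockdown array, and the log2 fold change was -0.41 ± 0.16 (adjusted p = 0.154 in limma). Mmp14 was lower in all 3 pairs. Mmp15 was at -0.31 (limma adjusted p = 0.242) and lower in all 3 pairs, and Mmp17 was at -0.10 with pairs on both sides of 0.

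Mmp19, which encodes a soluble MMP that cuts basement membrane proteins, had the highest log2 fold change of the members. It was at 1.49, 1.11 and 0.51 in control and 2.65, 1.98 and 1.87 in knockdown replicates. The groups did not overlap, and within each group replicate 1 was highest and replicate 3 lowest. Its log2 fold change was 1.13 ± 0.29 (adjusted p = 0.0609 in limma), or 2.19-fold, and it passed with the replicate block (limma adjusted p = 0.0327). The pairs differed by 1.16, 0.87 and 1.36. A second Mmp19 probe had a log2 fold change of 1.02. Mmp28, the epilysin gene, was at -0.46, -0.75 and -0.66 in control and -0.29, -0.39 and -0.40 in knockdown replicates. Its groups did not overlap, and its log2 fold change of 0.27 did not pass (limma adjusted p = 0.238).

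Of the 3 tested inhibitor genes, 0 passed in limma without the block. Timp1 alone had an unadjusted p below 0.05 (0.0102) and passed with the block. Timp1, a soluble inhibitor of most MMPs that AP-1 and cytokines are known to induce, was at 5.89, 6.40 and 6.33 in control and 5.19, 5.73 and 5.68 in knockdown replicates. Every knockdown array lay below every control array, and both groups were lowest in replicate 1. The pairs differed by -0.70, -0.67 and -0.65, the narrowest spread of pair differences among the 5 members with the largest falls. In limma the change was -0.68 ± 0.20 (adjusted p = 0.0853 in limma; 0.0466 with the replicate block), or 62.6% of control.

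Timp2, which inhibits MMPs and also takes part in MMP2 activation with MT1-MMP, was at 5.79, 5.74 and 5.25 in control and 5.04, 5.91 and 5.83 in knockdown replicates. Its groups overlapped, the pairs ran from -0.75 to 0.58, and the 95% interval of its log2 fold change was -0.60 to 0.60. Timp3, a matrix-bound inhibitor that also blocks ADAM and ADAMTS enzymes, was at -0.47, 0.30 and 0.69 in control and -0.78, 0.11 and 0.58 in knockdown replicates. Timp3 differed more between dates than between groups, with pair differences of -0.31, -0.19 and -0.12. Its SE was 0.39 without the block and 0.12 with it, and it did not pass in either fit (limma adjusted p = 0.804 and 0.364). A second Timp3 probe had a log2 fold change of -0.04. In the RefSeq table, Timp1, Timp3 and Timp4 each lie within a synapsin gene (Syn1, Syn3 and Syn2), and no value of the host genes was used.

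**Figure D4:**
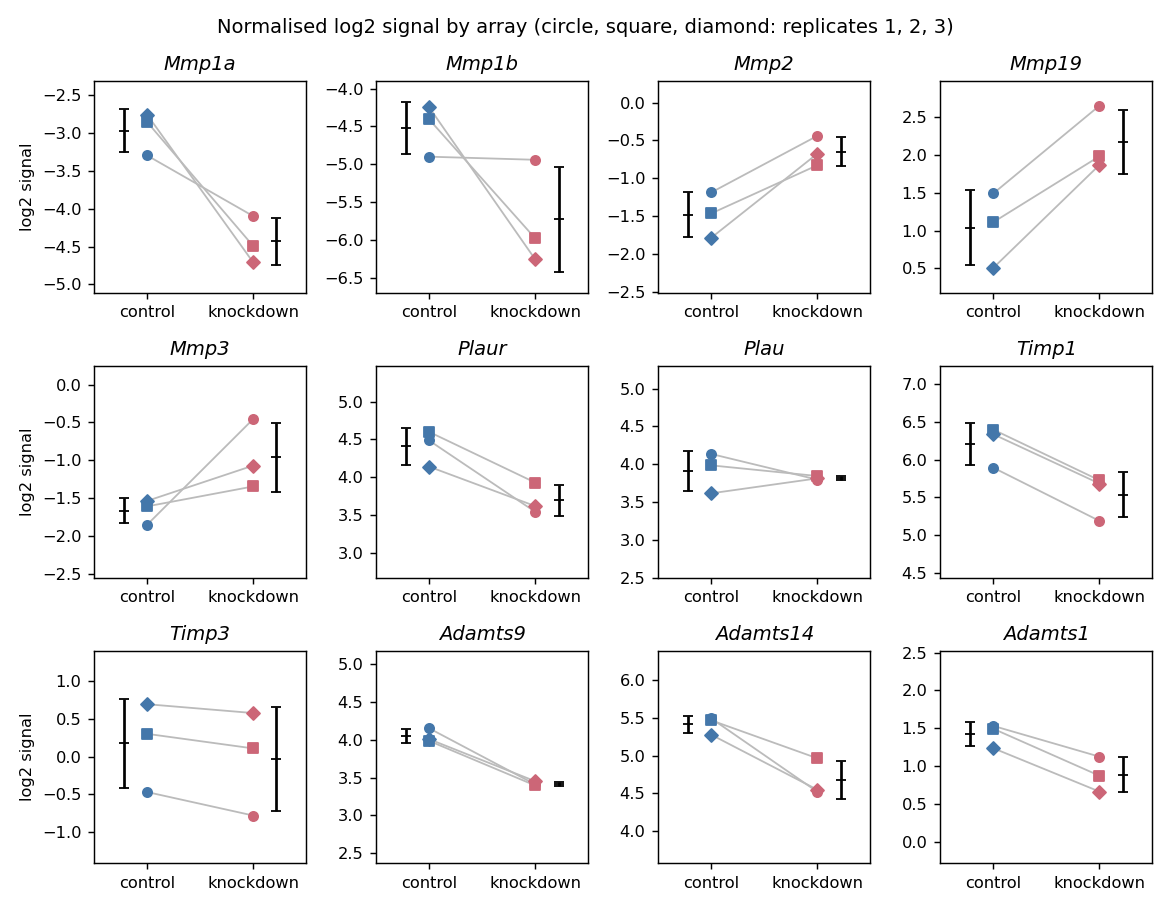
Normalised log2 signal of 12 member genes on each array, with lines joining the control and knockdown array of a replicate pair and bars giving mean ± SD of 3 arrays. The groups do not overlap for the panels shown except Plau and Timp3, and Timp3 shows near-parallel lines at different heights.

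Among the proteoglycan-cutting ADAMTS genes, Adamts9 fell, Adamts1 had a value below 0 and Adamts4 a value above 0. Adamts9, whose product cuts versican and aggrecan, was at 4.15, 3.99 and 4.01 in control and 3.41, 3.40 and 3.45 in knockdown replicates. The groups were tight and did not overlap. The log2 fold change was -0.63 ± 0.11 (adjusted p = 0.0222 in limma; 0.0586 with the replicate block), or 64.6% of control. Its call was kept without knockdown replicate 1 and lost without any other single array, with adjusted p up to 0.0861 in limma.

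Adamts1, whose product cuts the same proteoglycans, was at 1.53, 1.49 and 1.23 in control and 1.12, 0.87 and 0.66 in knockdown replicates. Its groups did not overlap either, and the log2 fold change was -0.53 ± 0.16 (adjusted p = 0.0852 in limma; 0.0474 without knockdown replicate 1). Adamts4, the aggrecanase-1 gene, was at 2.10, 2.14 and 2.14 in control and 2.65, 2.18 and 2.33 in knockdown replicates. Its gap between groups was small, and its log2 fold change was 0.26 (95% interval -0.08 to 0.60; limma adjusted p = 0.324).

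Adamts14, which encodes a procollagen N-propeptidase, was the only tested gene of its group. It was at 5.49, 5.47 and 5.28 in control and 4.52, 4.97 and 4.55 in knockdown replicates. The groups did not overlap, and a second Adamts14 probe had a log2 fold change of -0.78. The probe in use gave -0.73 ± 0.16 (adjusted p = 0.0353 in limma; 0.0603 with the replicate block), or 60.1% of control. The Adamts14 call was kept without knockdown replicate 2 and lost without any other single array.

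Of the other ADAMTS genes, Adamts17, which has a role in the assembly of microfibrils, was at -3.34, -3.29 and -3.06 in control and -2.82, -2.86 and -2.36 in knockdown replicates. The groups did not overlap. Its log2 fold change was 0.55 ± 0.17 (adjusted p = 0.093 in limma), and a second probe stood at 0.76. With the mean of its probes Adamts17 passed (log2 fold change 0.66, limma adjusted p = 0.0255), while with normexp it was at 0.25 (adjusted p = 0.308). Adamts10, also a microfibril gene, was at -0.11 with a second probe at 0.20, and Adamts7 was at -0.09. Of the ADAMTS-like genes, Adamtsl4 was at 0.17 and Adamtsl5 at -0.06 (95% interval -0.50 to 0.38). A second Adamtsl5 probe stood at -0.47, so the probes of that gene differed in size.

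The urokinase receptor gene fell and its ligand gene did not pass. Plaur was at 4.49, 4.60 and 4.14 in control and 3.54, 3.93 and 3.62 in knockdown replicates. All knockdown arrays lay below all control arrays, and the pairs differed by -0.94, -0.67 and -0.52. Its log2 fold change was -0.71 ± 0.17 (adjusted p = 0.0474 in limma; 0.0603 with the replicate block), or 61.0% of control. Plaur stood close to the threshold, and its adjusted p in limma was 0.0627 with quantile normalization and 0.0594 with the percentile taken over probes above background on all arrays. Leaving out control replicate 3 kept the Plaur call, and leaving out any other single array ended it, with adjusted p up to 0.164 in limma.

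Plau was at 4.14, 3.98 and 3.61 in control and 3.80, 3.84 and 3.81 in knockdown replicates. The knockdown arrays fell inside the control range, and the log2 fold change was -0.09 (95% interval -0.45 to 0.26; limma adjusted p = 0.765). A second, dimmer Plau probe had a log2 fold change of -0.39 ± 0.39 (SE). The change of Plau exceeded that of Plaur by 0.62 log2 units, and by 0.60, 0.53 and 0.72 in the pairs. For this comparison, also chosen after the values were seen, the exact two-sided permutation p over 3 and 3 arrays was 0.1, the smallest possible.

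Other genes of matrix proteolysis were taken from 7 lists of 129 genes, of which 86 were tested. 5 rose and 3 fell, or 9.30% against 7.41% of all genes, and the median log2 fold change was -0.03. In the plasminogen system and its serpins, 1 of 14 tested genes passed, and it fell. That gene was Plat, the tissue plasminogen activator, at 2.99, 3.16 and 3.36 in control and 2.73, 2.44 and 2.54 in knockdown replicates (log2 fold change -0.60 ± 0.14; adjusted p = 0.0478 in limma; 0.0975 with the replicate block).

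Among 14 tested modulators of MMPs, 2 fell and 1 rose (21.4%, against 7.41% of all genes). Thbs1, the matrix protein thrombospondin-1, which binds MMP2 and MMP9, fell (log2 fold change -1.999 ± 0.13; adjusted p = 0.00314 in limma). The trypsin inhibitor gene Pi15 fell (-0.74; limma adjusted p = 0.0295), and Pcolce, an enhancer of procollagen C-proteinase, rose (0.56; limma adjusted p = 0.0478). Of these, Pi15 and Pcolce lost their calls under the replicate block (adjusted p = 0.0629 and 0.0668 in limma). Reck, a membrane-anchored MMP inhibitor, was at 0.06 (95% interval -0.24 to 0.37), and Bsg, which encodes the MMP inducer CD147, was at 0.27 (limma adjusted p = 0.193).

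Of 11 tested cathepsin and cystatin genes, 2 passed, and both rose (18.2%, against 7.41% of all genes). They were Ctsa (log2 fold change 0.63; limma adjusted p = 0.0287), a lysosomal carboxypeptidase, and Ctsk (0.60; limma adjusted p = 0.0442), a collagen-cutting cathepsin. With the replicate block their limma adjusted p was 0.0706 and 0.0991. Of the same list, Ctsd (0.38), Ctsz (0.31), Cst3 (0.30) and Cstb (0.48) were higher and Ctsh (-0.51) lower at an unadjusted limma p below 0.05. Of 13 other pericellular proteases 1 rose, the elastase gene Cela1 (0.77 ± 0.12; adjusted p = 0.0174 in limma). In limma 0 of 11 membrane ADAM genes and 0 of 8 proteoglycan and matrix substrates passed. Dcn, the decorin gene, passed with the replicate block at 0.84 (limma adjusted p = 0.0375). At an unadjusted limma p below 0.05 were 4 of the ADAM genes, with Adam10 (-0.51), Adam12 (-0.48) and Adam17 (-0.61) lower and Adam22 (0.44) higher, against 24.8% of all genes. The same threshold took 2 of the 8 substrates, Dcn and Tnc (-0.63), a share near that of all genes.

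Of 15 tested AP-1, Ets and NF-kappa-B factor genes, 1 rose, Etv1 (0.63; limma adjusted p = 0.0279; 0.0657 with the replicate block). Another 4 genes of this list, Fosb, Fosl1, Fosl2 and Atf3, were lower at an unadjusted limma p below 0.05. With Etv1 that is 5 of 15, against 24.8% of all genes, and nothing particular to the list is read from it. Jun was at 4.85, 5.23 and 4.67 in control and 4.05, 5.01 and 4.60 in knockdown replicates, and the groups overlapped. For Jun the log2 fold change was -0.36 (95% interval -0.96 to 0.23; limma adjusted p = 0.433). Fosl1, the FRA-1 gene, was at 3.18, 3.28 and 2.89 in control and 2.08, 2.77 and 2.37 in knockdown replicates, without overlap. The log2 fold change of Fosl1 was -0.71 ± 0.20 (adjusted p = 0.0751 in limma). The median of this list was -0.27, against 0.02 over all genes. Among the 18 tested members with a window, 5 held the AP-1 motif. Of these, Mmp1a and Plaur fell, and Mmp1b (-1.21, or -0.32 with normexp), Mmp10 (0.14) and Mmp3 (0.71) did not pass.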

How the data were processed

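The deposited scanner files hold spot intensity values, background-corrected by Agilent Feature Extraction 11.0.1.1 per the file headers. The deposited value table holds log2 values that differed from log2 of that signal by 1 constant per array (tolerance 0.01), with column medians of -4.47 to -4.22. It served as an alternative. All arrays shared 1 scan date and 1 slide. Outlier spots were left out (12 probes lost), replicate spots were averaged on the log2 scale, and the array's 75th percentile was subtracted. The deposited 0 or 1 flags (other values) of the authors' scanner software gave detection, with at least 0.5 of a probe's spots above background. Transcript accessions, their versions dropped, were looked up in a RefSeq table of GRCm38.p6, used for names because the array design is on another build, and 32994 probes (58.3%) were named, each with 1 symbol, while 23611 had none.

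Probes above background on at least 3 of 6 arrays were kept (31804). The brightest named probe stood for each of 14151 genes. Groups were compared by limma 3.58.1 in R 4.3.3 (lmFit, eBayes, two-sided), with Benjamini-Hochberg adjustment over all genes and a threshold of 0.05. The fit was tested on simulated data. The block was left out of the reported fit. The shared dates in the titles pair the arrays, and deviations of paired arrays correlated at -0.02, 0.55 and -0.20. The block is given where it changes a call. Members and lists were chosen with earlier results of these data known. Named with values are all tested members, list genes past the threshold, and Plat, Reck, Bsg, Jun and Fosl1. Dcn, Tnc, the ADAM genes, Ctsd, Ctsh, Ctsz, Cst3, Cstb, Fosb, Fosl2 and Atf3 were named after their values were seen. The same holds for the values of single stem cell and astrocyte markers. A gene of the other lists is not reported here.
Summed signal of the other marker lists, in multiples of the 75th percentile, was 0.153 to 0.229 in control and 0.17 to 0.194 in knockdown arrays for endothelial markers, and 6.42 to 10.6 and 5.98 to 7.74 for neuron markers. Snap25, with a brighter probe than Syt1, made up most of the neuron sum, and Rbfox3 was above background on no array.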

Additional observations from a re-analysis of the deposited data

How the results depend on the processing

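With the replicate block, 558 genes passed in place of 1048 (394 higher, 164 lower). Of the members 2 were then higher and 2 lower, and of the other matrix protease genes 4 passed in place of 8.
Without a filter on dim probes, 357 genes (255 higher, 102 lower), 1 member (0 higher, 1 lower) and 2 other matrix protease genes passed, with 22907 genes tested. With p-values adjusted over all probes, it was 610 genes (390 higher, 220 lower), 2 members (0 higher, 2 lower) and 5 others. With normexp or with the mean of a gene's probes, 2 members were higher.
With arrays left out singly or by date, 0 to 840 genes passed (0 to 497 higher, 0 to 343 lower), with 0 to 4 members (0 higher, 0 to 4 lower) and 0 to 10 others. Ggct ran from -3.12 to -2.78 and did not pass without replicate 3 (limma adjusted p = 0.125). With 0 calls there, 2796 genes had an unadjusted limma p below 0.05. Apart from the fewer samples or the more rows tested, the cause was not tested.
No called member changed sign. Among uncalled ones, Adamts10 was at 0.046 with the mean of its probes and Timp2 at -0.029 with quantile normalization. With arrays left out, Adamtsl5 ran from -0.28 to 0.18, Mmp10 from -0.21 to 0.47, Mmp17 from -0.295 to 0.017, Mmp9 from -0.404 to 0.012, Plau from -0.243 to 0.029, Timp2 from -0.29 to 0.38 and Timp3 from -0.53 to 0.17. With arrays left out, 7 of 45 values of called members kept their call and 38 lost it, and in the other settings 33 of 45 kept it and 12 lost it. Normexp was run on the median signal, chosen after seeing the data, since the planned mean signal was not used here. The number of arrays limits the precision, and for Mmp1b, Mmp9 and Adamts17 probes near background do. The size of the Mmp1a change also depends on the background correction.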
